A study of Mus musculus with 13 samples.

Results

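The genes for the proteins of the cytosolic ribosome were examined in mouse embryonic stem cells (mESCs) with an inducible gene for the CTCF S224E mutant. The 82 genes, 32 of the small subunit (Rps genes and Rpsa) and 50 of the large subunit (Rpl and Rplp genes), were all those of the 24421 counted genes whose symbol follows the naming of the family. F1-2.1 is a female mESC line from a CAST/Ei x 129/Sv/Jae cross, grown over γ-irradiated mouse embryonic fibroblast feeder cells. All 4 RNA libraries came from clone A2, which carries a Tet-on transgene for CTCF S224E with a 3xFLAG tag, and also keeps its endogenous CTCF. Doxycycline was added at 1 μg/mL for 6 days (+dox, 2 libraries) or left out (−dox, 2 libraries), and polyadenylated RNA was sequenced. Since RNA from cells given dox but lacking the transgene was not analysed here, an effect of dox and an effect of S224E cannot be told apart, and both groups rest on 1 clone.

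A ribosome is built from ribosomal RNA and a set of proteins needed in equal numbers, so cells make the mRNAs of these proteins in a coordinated way. In most of these mRNAs the 5′ end is a tract of pyrimidines, the TOP motif, through which mTOR signalling controls their translation. Stem cells that grow fast make many ribosomes. When assembly fails, unassembled Rpl5 and Rpl11 bind Mdm2 together with the 5S rRNA, and p53 accumulates. Most ribosomal protein genes have left processed pseudogenes in the mouse genome, copies made from the mRNA, and a few copies have become genes of their own, such as Rpl10l.

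RefSeq promoter sequences, which run from 250 bases before to 50 bases after the annotated start, were found for 61 of the 82 genes. The letters CTTTCC, a run of pyrimidines, were searched on the coding strand within 50 bases of the start, and 19 of the 61 genes (31.2%) held them, against 5.43% of all 27025 genes with a promoter sequence. CCGGAAGT, the core of ETS family sites, was searched on both strands of the whole window and was present for 12 of the 61 (19.7%) and for 4.31% of all genes. A match describes these letters only, and it does not place a TOP motif at the 5′ end of the mRNA. Stretches of 30 bases around CTTTCC, which is in capitals, are given for a gene among those with the lowest p-values (Rpl13a), the gene with the most reads (Rpl4), and 1 gene each with a high and a low difference between +dox and −dox (Rpl35 and Rpl26). They lie in GRCm38.p6 at chr7:45128719-45128748 on the minus strand, chr9:64173358-64173387 on the plus strand, chr2:39005119-39005148 on the minus strand and chr11:68901579-68901608 on the plus strand.
Rpl13a: caagacctcctcCTTTCCcaggcggctgcc
Rpl4: caagtgacaagtCTTTCCttttcctgtggg
Rpl35: gtcggccccgccCTTTCCtctttctctcga
Rpl26: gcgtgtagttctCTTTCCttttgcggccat

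Among the members are 3 copies that span a single exon, Rps4l, Rpl10l and Rpl32l, whose reads stand beside those of the genes they resemble. In NCBIM37 (mm9) Rps4l is on chr6:148303178-148304118 and resembles the X-linked Rps4x (79.7% identity over 847 aligned transcript positions). Rpl10l is on chr12:67384366-67385388 and resembles the X-linked Rpl10 (84.3% over 664). Rpl32l is on chr10:19928245-19928836 and resembles Rpl32 on chromosome 6 (95.2% over 505). The first 60 bases from the start codon of the parent are shown with the aligned bases of the copy, and differing bases are in capitals.
Rpl10: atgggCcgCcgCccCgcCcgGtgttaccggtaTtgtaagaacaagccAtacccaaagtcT
Rpl10l: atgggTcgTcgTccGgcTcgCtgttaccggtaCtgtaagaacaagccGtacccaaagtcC
Rps4x: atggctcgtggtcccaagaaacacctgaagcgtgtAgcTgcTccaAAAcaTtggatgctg
Rps4l: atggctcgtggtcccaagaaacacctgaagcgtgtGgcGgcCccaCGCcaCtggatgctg
Over these 60 bases Rpl10 and Rpl10l differ at 9 and Rps4x and Rps4l at 7. Rpl32 and Rpl32l have the same 60 bases, and a read from this stretch fits both.
Rpl32: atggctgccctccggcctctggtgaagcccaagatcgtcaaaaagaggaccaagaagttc

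The libraries held 22899107 to 30206085 counted reads. Ctcf, whose row counts endogenous and transgenic reads together, had 327 and 329 CPM (counts scaled by TMM to equal library sizes) with dox and 295 and 304 without, a log2 fold change of 0.13 ± 0.09 (SE, adjusted p-value of 0.47, edgeR). ES cell markers were present in all libraries, and 13 of 16 were higher with dox, where 50.8% of all tested genes were. At an adjusted p-value under 0.01 edgeR called 0 of these 16, with 8 at an unadjusted p-value under 0.05, and DESeq2 called 1, Gdf3, as higher. Of 30 fibroblast markers, none at 0 in any library, the summed level was 5108 CPM in +dox replicate 1, against 2556 CPM in +dox replicate 2 and 2289 and 2565 CPM in the −dox libraries, so that +dox replicate 1 stands apart. The median log2 fold change of these markers was 1.57 in replicate 1 and 0.28 in replicate 2, and edgeR called 0 of the 30, with 24 at an unadjusted p-value under 0.05. All 10 primitive streak markers had a log2 fold change under 0, and at 0.01 edgeR called 8 of them as lower, where it called 0.519% of all tested genes as lower, and DESeq2 called 9, against 1.28%. In bulk RNA, a change in the mix of cells and a change of RNA in each cell cannot be told apart.

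Ribosomal protein genes took a larger share of the reads with dox. Their share was 1.39% in +dox replicate 1 (95% Wilson interval 1.385% to 1.394%), 1.49% in +dox replicate 2 (1.486% to 1.496%), 1.21% in −dox replicate 1 (1.206% to 1.214%) and 1.23% in −dox replicate 2 (1.224% to 1.232%), where intervals cover counting error only. Both +dox libraries lay above both −dox libraries, with means of 1.44% ± 0.07 (SD, n = 2) and 1.22% ± 0.01 (SD, n = 2). The ratio of the means was 1.18. This difference was given no test, and the smallest two-sided p-value of an exact permutation test of 2 against 2 libraries is 0.33. The share was higher in +dox replicate 2 than in +dox replicate 1. In +dox replicate 2 the summed fibroblast markers lay within the −dox range, but Fn1 alone held 1357 of those 2556 CPM. By single marker, 24 of the 30 were higher with dox in replicate 2. For 22 of the 30 (73.3%) both +dox libraries lay above both −dox libraries, against 23.3% of all tested genes. A part of fibroblast RNA in the share of reads was not tested. The 5 genes with the most reads, among them Rpl4, Rps3, Rpl8 and Rps4l, held 0.54% and 0.59% of all reads with dox and 0.47% and 0.50% without, and the other 77 genes 0.85% and 0.91% against 0.74% and 0.72%.

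**Figure D1:**
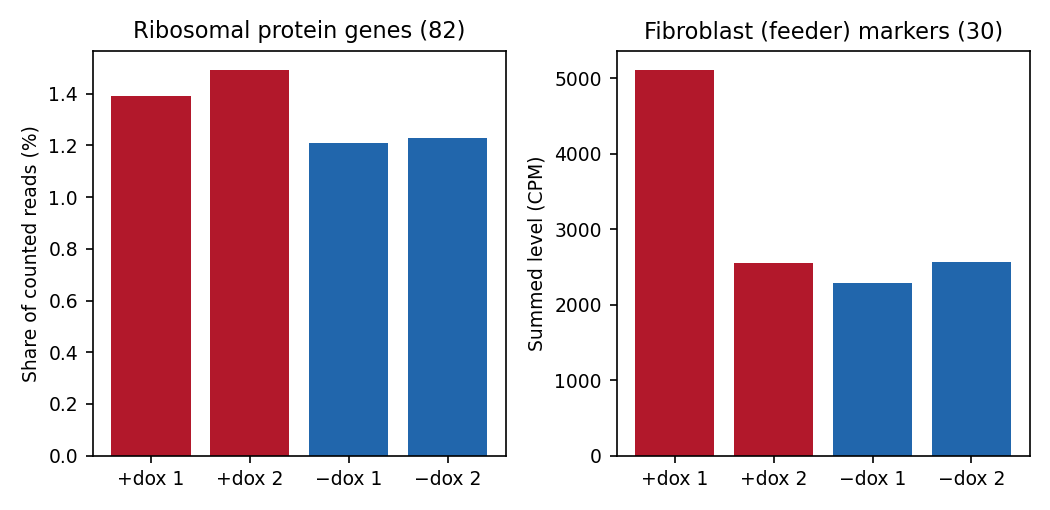
Share of counted reads on the 82 ribosomal protein genes (left, percent) and summed level of 30 fibroblast markers (right, CPM), 1 bar per library, red with dox and blue without. The ribosomal protein share was 1.39% and 1.49% with dox against 1.21% and 1.23% without. The sum of the fibroblast markers was high in +dox replicate 1 alone, at 5108 CPM. By single marker, 24 of the 30 were higher with dox in replicate 2 as well.

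The difference was small for most genes and ran through most of the family. The median log2 fold change of the 82 genes was 0.26 (a fold of 1.20), against 0.01 for all 20044 genes tested, and 74 of the 82 (90.2%) were higher with dox, where 50.8% of all tested genes were. The median was 0.22 in replicate 1 and 0.34 in replicate 2. Without +dox replicate 1, the library with the highest sum of fibroblast markers, it was 0.33. Genes of the small subunit had a median of 0.28 with 30 of 32 higher, and those of the large subunit 0.25 with 44 of 50 higher. In 63 genes the value was higher in both replicates, where 30.5% of all tested genes were, in 3 (Rpl37, Rps23 and Rpl3l) it was lower in both, and in 16 the replicates went opposite ways. For 50 genes (61.0%) both +dox libraries lay above both −dox libraries, against 23.3% of all tested genes, and for 1, Rpl3l, both lay below, against 23.7%.

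None of these genes passed edgeR's quasi-likelihood test on its own at the threshold used. It called 0 of the 82 at an adjusted p-value under 0.01, and called 0.0798% of all tested genes as higher and 0.519% as lower. At an unadjusted p-value under 0.05, 33 of the 82 were higher and 0 lower, where 8.48% of all tested genes were higher and 9.31% lower. DESeq2 called 3 (Rpl10l, Rpl13a and Rpl32), all higher, with 0.589% of all tested genes called as higher and 1.28% as lower. Leaving out +dox replicate 1, edgeR called 14 of the 82, 11 higher and 3 lower (1.51% and 3.56% of all genes tested), and leaving out +dox replicate 2 it called 9, 8 higher and 1 lower (2.62% and 1.81%). On simulated counts with the means and spread of these libraries, edgeR's test recovered 0 of 200 genes changed by 0.5 on the log2 scale and 125 of 200 changed by 1, so a difference of 0.5 was not recovered by this test with 2 libraries per group.

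**Figure D2:**
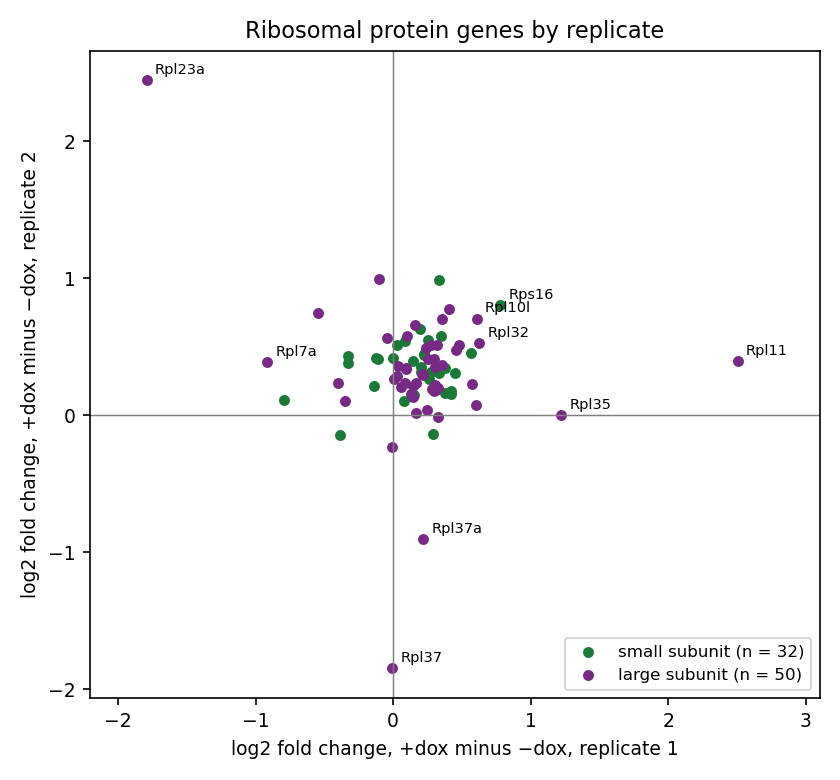
log2 fold change of each of the 82 genes between +dox and −dox libraries in replicate 1 (horizontal) and replicate 2 (vertical), with small subunit genes in green and large subunit genes in purple. Most genes lie in the upper right, with 63 higher in both replicates, while Rpl11, Rpl35, Rpl37 and Rpl37a lie far out in 1 replicate and Rpl23a in opposite directions in both.

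Short transcripts were higher with dox in general, and ribosomal protein transcripts are short, with a median counted exon length of 700 bases against 2486 for all tested genes. Of 554 other genes with at most 1000 bases of exon and 10 CPM or more on average, 436 (78.7%) were higher with dox, with a median log2 fold change of 0.15. The median was 0.27 for the 48 ribosomal protein genes of that length and level. Both +dox libraries lay above both −dox libraries in 48.2% of the 554 and 66.7% of the 48, and below them in 52 and 0 genes. In 60.5% of the 554 and 83.3% of the 48 the value was higher in both replicates. At an unadjusted p-value under 0.05 (edgeR), 122 of the 554 were higher and 19 lower, and 23 of the 48 were higher and 0 lower. The same split by replicate was present in those other short genes, with medians of 0.06 in replicate 1 and 0.22 in replicate 2. After a loess correction of each library for transcript length, the median of the 82 genes was 0.19, with 68 higher, and that of all tested genes 0.04. The 77 genes for proteins of the mitochondrial ribosome, a separate particle, had a median of 0.18 with 73 higher, and 0 were called. In 64.9% of these 77 both +dox libraries lay above both −dox libraries, beside 61.0% of the 82 genes. In 72.7% of the 77 the value was higher in both replicates, beside 76.8% of the 82. The part of transcript length in the result was not tested beyond this correction.

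**Figure D3:**
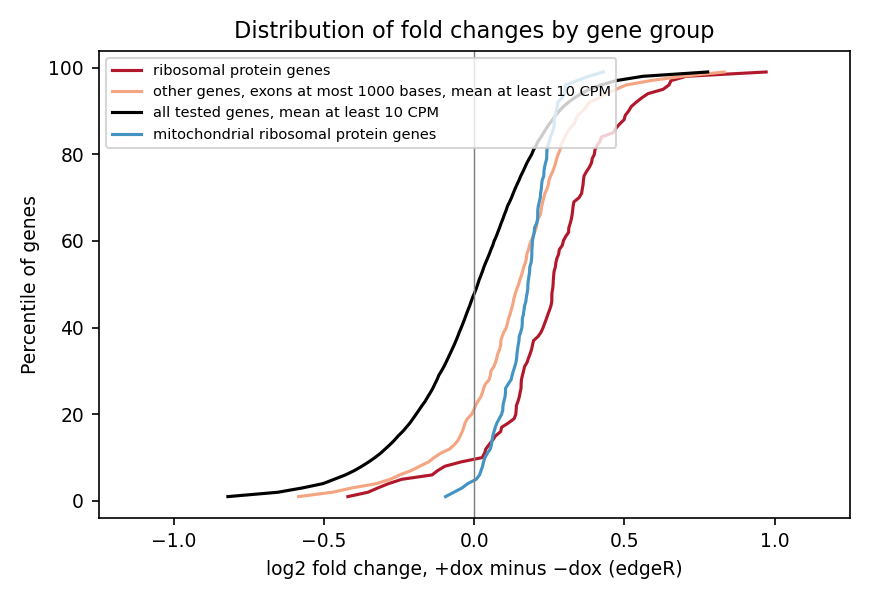
Percentile of genes (vertical) by log2 fold change between +dox and −dox libraries (horizontal) for the 82 ribosomal protein genes, 77 mitochondrial ribosomal protein genes, 554 other genes with at most 1000 bases of exon, and all tested genes, the latter 2 groups limited to averages of 10 CPM or more. The curves cross the 50th percentile at medians of 0.26, 0.18, 0.15 and 0.01.

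Rpl10l, Rpl32 and Rpl13a had the lowest adjusted p-values, and Rpl13a was named after the values were seen. Rpl32, a protein of the large subunit, had 360 and 414 CPM with dox and 234 and 288 CPM without. The groups did not overlap, and the log2 fold change was 0.57 ± 0.11 (SE, adjusted p-value of 0.022, edgeR). Rpl13a, which in other settings also leaves the ribosome to repress inflammatory mRNAs, had 632 and 737 CPM with dox and 506 and 516 without, a log2 fold change of 0.42 ± 0.09 (SE) with an adjusted p-value of 0.033 by edgeR. At a threshold of 0.05, 0.928% of all tested genes were called higher.

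Among genes of 10 CPM or more whose replicates had 1 direction, Rps16 showed the largest difference, at 30.4 and 20.2 CPM with dox against 17.7 and 11.6 without. In either group replicate 1 was the higher library, and the log2 fold change was 0.78 in replicate 1 and 0.80 in replicate 2. Over all 4 libraries it was 0.79 ± 0.23 (SE, adjusted p-value of 0.091, edgeR). Rps25, a small subunit protein that viral internal ribosome entry sites need, had 24.7 and 26.2 CPM with dox and 19.6 and 13.2 without, a log2 fold change of 0.63 ± 0.19 (SE). Rpl35 had 38.3 and 31.3 CPM with dox and 16.4 and 31.2 without, so that the difference came from the low −dox replicate 1. At the other end, Rpl26 differed little, with 115 and 118 CPM with dox and 103 and 116 without (log2 fold change of 0.09 ± 0.10 (SE)). Rps10 (0.09), Rpl3 (0.13), Rpl35a (0.14), Rpl14 (0.14), Rpl36 (0.14) and Rps18 (0.15) also had log2 fold changes near those of other short genes. Rpl14 was measured closely, at 269 and 268 CPM with dox and 243 and 244 without.

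Levels within the family spread over a wide range, although the proteins are needed in equal numbers. Per kilobase of exon, the mean level over the 4 libraries ran from 2.52 CPM per kb for Rpl29 to 1237 CPM per kb for Rpl8, with a median of 67.4. Among the next were Rps14 at 1146, Rpl4 at 1066 and Rps15 at 891 CPM per kb. Rpl8, a protein of the catalytic core, had 1139 and 1163 CPM with dox and 924 and 1000 without (log2 fold change of 0.26 ± 0.08 (SE)). Rps14, whose partial loss underlies the anaemia of the 5q- syndrome, had 736 and 769 CPM against 631 and 569. In all these abundant genes the +dox libraries lay above the −dox libraries. The order of these levels was not tested.

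Among the lowest levels were those of genes for core proteins of the ribosome. Rps6, the substrate of S6 kinase, had 127 and 165 reads with dox and 188 and 135 without, or 4.40 CPM per kb. Rps23, a protein of the decoding centre, had 38 and 32 reads with dox and 68 and 39 without (3.13 CPM per kb). Rpl17 had 40 and 51 reads against 70 and 52 (2.73 CPM per kb), and Rpl29 had 48 and 44 against 43 and 41. The groups overlapped for Rps6, Rps23 and Rpl17, and at these counts no difference was detectable for them.

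The authors counted uniquely mapped reads, and the read length was 50 bases. Cutting each transcript into windows of 50 bases and searching NCBIM37 for exact copies elsewhere gave a value for 80 genes. The share of windows with a copy elsewhere had a median of 60.5% and ran from 0% to 98.1%, and 24 genes were above 80%. Genes with the most reads were low, at 3.44% for Rps3, 7.87% for Rpl8, 15.7% for Rps4l and 17.8% for Rpl4. Rps23 (92.2%), Rpl17 (85.4%) and Rpl29 (78.4%) were high, and Rps6 was at 55.1%. Across the 80 genes Spearman's rho between this share and the level per kilobase was -0.35, a description over genes that share the same libraries. The 10 genes at 20% or less had a median of 364 CPM per kb and the 24 above 80% a median of 31.9. How far repeated sequence lowers each count was not tested, and levels of single genes are uncertain for this reason.

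**Figure D4:**
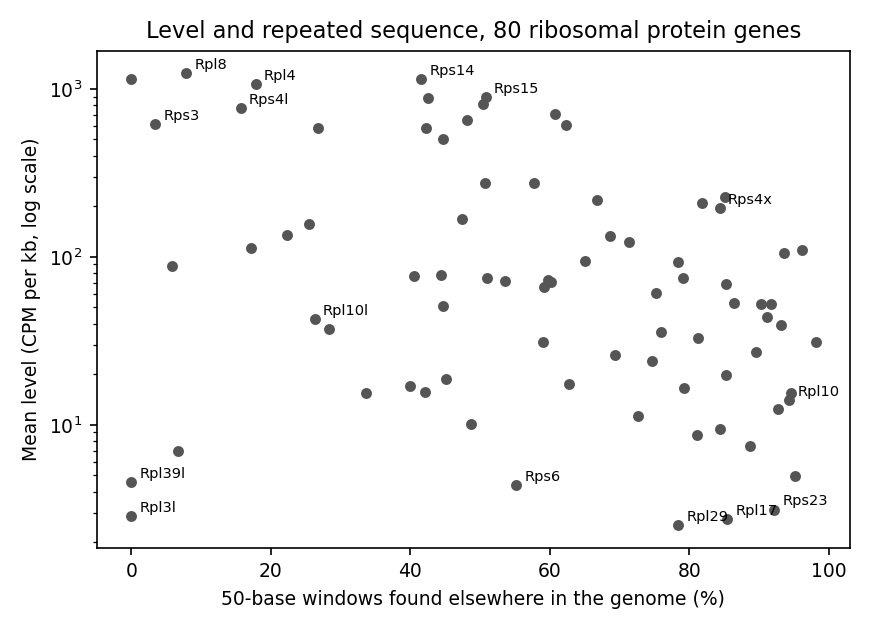
Mean level over 4 libraries (CPM per kb, log scale) against the share of 50-base windows found elsewhere in the genome (percent), 1 point for each of 80 ribosomal protein genes. Rpl8, Rpl4, Rps3 and Rps4l lie at the upper left, and Rps23, Rpl17 and Rpl29 at the lower right, while Rpl3l and Rpl39l are low with 0% of windows elsewhere.

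The difference with dox was present on both sides of this split. The 29 genes with at most 50% of windows elsewhere had a median log2 fold change of 0.30, with 27 higher, and the 51 above 50% had a median of 0.25, with 45 higher. Among the 10 genes at 20% or less the median was 0.26, and among the 24 above 80% it was 0.21, with 20 higher. Those 24 had medians of 0.13 in replicate 1 and 0.37 in replicate 2. Spearman's rho between the share of windows and the log2 fold change was -0.18 across the 80 genes. The share of all reads on the 29 genes was 0.93% and 1.03% with dox and 0.80% and 0.84% without.

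The copies and their parents differed in which of them held the reads. Rps4l had 17535 and 18296 reads with dox and 19866 and 16735 without, and the X-linked Rps4x 6656 and 3379 with dox and 6098 and 2716 without. Rps4l replicates lay close together, at 779 and 801 CPM with dox against 650 and 667 without (log2 fold change of 0.26 ± 0.08 (SE), adjusted p-value of 0.104 by edgeR). Rps4x split by replicate number instead, at 296 and 148 CPM with dox and 200 and 108 without, so that replicate 1 was higher in both groups. In Rps4x 84.3% of windows had copies elsewhere, and in Rps4l 15.7%. Rps4x had a log2 fold change of 0.53 ± 0.28 (SE).

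Rpl10l, which takes the place of the X-linked Rpl10 in male meiosis when the X is silent, had the lowest adjusted p-value of the family. It had 53.3 and 53.1 CPM with dox and 35.0 and 32.6 without. The +dox libraries lay apart from the −dox libraries, with a log2 fold change of 0.66 ± 0.12 (SE, adjusted p-value of 0.018, edgeR). Rpl10, which completes the peptidyl transferase centre late in assembly, had 13.3 and 12.6 CPM with dox and 10.4 and 7.73 without, a log2 fold change of 0.52 ± 0.20 (SE). Per kilobase, the mean level of Rpl10l was 42.6 CPM and that of Rpl10 14.0 CPM, with 94.3% of Rpl10 windows and 26.3% of Rpl10l windows found elsewhere. Rpl32l had 104 and 96.9 CPM with dox and 84.7 and 85.6 without (log2 fold change of 0.24 ± 0.10 (SE)). Of its windows 12.3% lie in Rpl32.

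Rpl3l and Rpl39l, paralogs known from other tissues, were scarce. Rpl3l, the form of Rpl3 in striated muscle, had 88 and 81 reads with dox and 120 and 105 without, a log2 fold change of -0.12 ± 0.25 (SE). Rpl3 itself had 61.3 and 62.0 CPM with dox and 61.0 and 51.7 without. Rpl39l, a form of Rpl39 known from the testis, had 70 and 132 reads with dox and 71 and 84 without, and 4.55 CPM per kb against 135 for Rpl39. The groups of Rpl39l overlapped, and those of Rpl39 too (48.8 and 87.3 CPM against 52.4 and 43.7). Rps27l, a p53 target that resembles Rps27, had 63.0 and 85.8 CPM with dox and 50.1 and 69.3 without. Its log2 fold change was 0.33 in replicate 1 and 0.31 in replicate 2 (standard error over all libraries of 0.17), and the groups overlapped. Rps27 had 9.51 and 10.3 CPM with dox and 6.94 and 8.33 without, a log2 fold change of 0.38 ± 0.20 (SE).

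**Figure D5:**
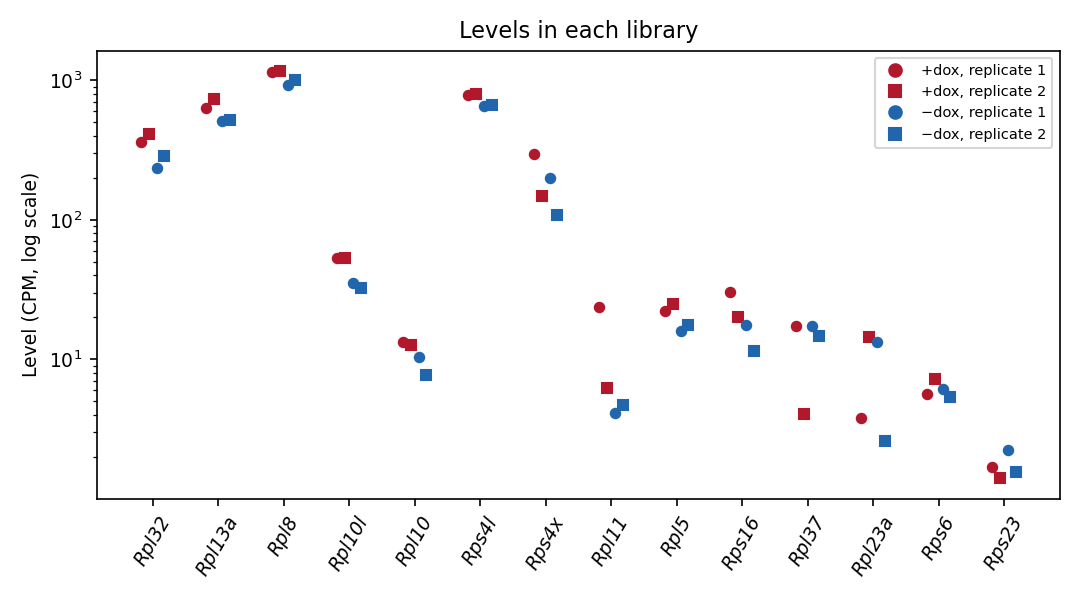
Level (CPM, log scale) of 14 ribosomal protein genes in each library, red with dox and blue without, circles for replicate 1 and squares for replicate 2. In Rpl32, Rpl13a, Rpl8, Rpl10l and Rps4l the red points lie above the blue ones, while Rpl11, Rpl37, Rpl23a and Rps4x spread between replicates.

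Of the proteins that bind Mdm2 outside the ribosome, Rpl5 was higher with dox in both replicates. It had 22.3 and 25.0 CPM with dox and 15.9 and 17.5 without, a log2 fold change of 0.50 ± 0.16 (SE, adjusted p-value of 0.116, edgeR). Rpl11 had 23.6 CPM in +dox replicate 1 and 6.26, 4.09 and 4.74 CPM in +dox replicate 2 and −dox replicates 1 and 2. Its log2 fold change of 1.76 (standard error of 0.44, adjusted p-value of 0.055 by edgeR) rested on 531 reads in 1 library, and was 0.40 in replicate 2 alone. In Rpl11 79.2% of windows had copies elsewhere. Rpl23, which also binds Mdm2, had 86.8 and 97.7 CPM with dox and 70.1 and 76.5 without (log2 fold change of 0.33 ± 0.11 (SE)). Rpl26, which acts on p53 mRNA, differed less than these, as given above. A list of 9 genes around the 5S particle and p53 had a median of 0.21, with 0 called by edgeR. DESeq2 called 3 (Trp53, Cdkn1a and Mdm2) as higher, where it called 0.589% of all tested genes as higher. The study had reported Trp53 and Cdkn1a as upregulated in these same libraries, so these calls were known beforehand.

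The stalk proteins, which recruit translation factors, all had higher means with dox. Rplp0 had 473 and 342 CPM with dox and 378 and 297 without, Rplp1 had 312 and 299 against 269 and 244, and Rplp2 had 46.3 and 41.3 against 41.3 and 35.1. Their log2 fold changes were 0.27, 0.25 and 0.20, with standard errors of 0.14, 0.09 and 0.13, and the groups overlapped for Rplp0. Rpsa, which also exists as a laminin receptor, had 135 and 160 CPM with dox and 127 and 110 without (log2 fold change of 0.31 ± 0.11 (SE)). Rps19, the gene most often mutated in Diamond-Blackfan anaemia, had 39.4 and 53.3 CPM with dox and 42.5 and 40.1 without, with overlapping groups. Rps27a, made as a fusion with ubiquitin, had 8.31 and 10.3 CPM with dox and 10.4 and 7.61 without, again with overlap. X-linked Rpl36a had 5.86 and 6.96 CPM against 5.50 and 5.46. Rps26 had 298 and 404 CPM with dox and 230 and 319 without, and Rps15 had 510 and 607 against 443 and 477.

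In some genes the replicates lay far apart. A gap between replicates above the difference between conditions was not limited to the genes given here. Rpl39, for example, had +dox replicates 0.84 log2 units apart and a log2 fold change of 0.50, and Rplp0 0.47 and 0.27. Of the 65 genes that averaged 10 CPM or more, 3 (4.62%), Rpl34, Rpl37 and Rpl37a, had replicates of 1 group more than 1 log2 unit apart, against 1.33% of all genes at that level. Below 10 CPM, Rpl11 and Rpl23a did too. Rpl23a, named after its values were seen, had 85 and 330 reads with dox and 405 and 65 without, so that +dox replicate 1 and −dox replicate 2 were low and the others high. Its log2 fold change was -1.79 in replicate 1 and 2.44 in replicate 2, and 94.5% of its windows had copies elsewhere. Rpl37 had 388 and 92 reads with dox and 530 and 369 without, and its log2 fold change of -0.59 (standard error of 0.43) came from the 92 reads of +dox replicate 2. Rpl37a had 1213 and 584 reads with dox and 1416 and 1202 without, and was low in the same library. Rpl34 split by replicate number, with 1076 and 422 reads with dox and 1369 and 366 without. Rpl7a (log2 fold change of -0.34) and Rpl38 (-0.07) were opposite in the replicates, at -0.92 and 0.38 and at -0.40 and 0.23. For Rpl7a −dox replicate 1 was the high library, at 49.7 CPM against 25.6 CPM in −dox replicate 2. Without these 5 genes (Rpl11, Rpl23a, Rpl34, Rpl37 and Rpl37a), the median of the other 77 was 0.26, with 71 higher.

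A further 31 genes held none of the 8 members with a log2 fold change under 0. All 31 were thus higher with dox in the fit over 4 libraries by the way they were chosen. Their log2 fold changes ran from 0.03 to 0.47, with a median of 0.27. In 21 of them both +dox libraries lay above both −dox libraries, and 10 had an unadjusted p-value under 0.05. Their medians were 0.24 in replicate 1 and 0.38 in replicate 2. Their levels ran from 4.98 to 817 CPM per kb.

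Ribosomal protein genes outside the naming rule and genes that assemble ribosomes were also higher in most cases. Of 8 such ribosomal proteins, 7 were in the counts, 6 of these were higher with dox and 0 were called, with a median log2 fold change of 0.20. Of 45 ribosome biogenesis genes, 42 were higher with a median of 0.19, and of 17 measured genes of RNA polymerase I and its factors, all were higher with a median of 0.15. Of 20 translation factors and other genes with TOP mRNAs, 18 were higher with a median of 0.19. After the length correction these medians were 0.13, 0.20, 0.16 and 0.20, beside 0.19 for the 82 genes. edgeR called 0 genes in each list, and the numbers at an unadjusted p-value under 0.05 were 2, 19, 2 and 9, all higher. Of all tested genes 8.48% were higher at that p-value, and 11.6% of those averaging 10 CPM or more. DESeq2 called 0, 2 (Rrp9 and Imp4), 0 and 1 (Vim), all higher, where it called 0.589% of all tested genes as higher. Vim, 1 of the other genes in its list, had a log2 fold change of 1.07 in replicate 1 and 0.30 in replicate 2. Of 20 measured regulators of ribosomal protein synthesis, such as the mTOR pathway, 10 were higher and 10 lower, with a median of 0.03, 0 called by either tool, and 1 at an unadjusted p-value under 0.05.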

How the data were processed

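Per the labels and the study's methods, the authors used cutadapt on 50-base paired reads, TopHat2 for alignment to mm9 and HOMER to count unique reads on exons, after removal of PCR duplicates. The deposited values are raw counts per gene, not normalized, in 1 table per replicate number. Reads that fit several places are not counted, and how far this and duplicate removal lower the counts was not tested. Tool versions and use of the strand are not given in the sources used here, so overlapping antisense genes are uncertain. Columns of counts were joined by symbol. 547 genes, 1 of them a ribosomal protein gene, have another transcript in the second table.

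The 20044 genes with 1 count or more in any library, which include all 82 members, were tested with edgeR 4.0.16 (TMM, quasi-likelihood, R 4.3.3) without a replicate block, and with DESeq2 1.42.0. P-values were adjusted by Benjamini-Hochberg over all tested genes, with a threshold of 0.01. Values are TMM-scaled CPM, and a prior count of 2 enters the fold changes of each replicate. The p-values set the difference between +dox and −dox against the spread between these replicates, all from 1 clone. Transcripts for the 50-base windows came from the NCBIM37 annotation (within 25% of the counted length). The test was checked on simulated counts. The members and lists were chosen with earlier results of these data known. Named genes are, by rule, the 8 largest and 8 lowest log2 fold changes among members averaging 10 CPM or more whose replicates had 1 direction, the 5 highest and 5 lowest levels per kilobase, and genes chosen by role. Others were named after their values were seen: Rpl13a, Rps3, Rps4l, Rpl32l, Rpl23a, Rpl34, Rpl37a, Rpl7a, Rpl38 and Rps26. Some members are counted in the totals but not reported here singly.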

Additional observations from a re-analysis of the deposited data

How the results depend on the processing

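The median log2 fold change of the 82 genes (0.26) stayed above 0 under every alternative run and moved by less than the spread between replicates, and leaving out 1 library at a time gave 0.20 to 0.33. Total counts in place of TMM gave 0.22 and moved the median of all tested genes by a like amount, to -0.04. The count of members called at 0.01 (0) was 0 under other scalings, filters and adjusted deviances, 3 with DESeq2 (0.589% of all genes higher), 1 (Rpl10l) with the length correction (0.803%), 4 at a threshold of 0.05 (0.928%), and 0 to 14 when 1 library was left out. It was 14 (11 higher, 3 lower) without +dox replicate 1 and 9 (8 higher, 1 lower) without +dox replicate 2, where the lone library is assumed to vary like the −dox group, and the cause was not tested. The difference in the share of reads, 0.22 percentage points, was 0.17 to 0.27 when 1 library was left out and 0.15 without the 5 genes with the most reads, which removes their part by construction.

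With the replicate number as a block (replicate block), edgeR called 12 members, all higher, where 1.58% of all genes were called higher, and DESeq2, added after seeing the data, called 5, all higher, where 0.469% were. Same-numbered libraries deviated together with a correlation of 0.20 across 13911 genes and -0.02 across the 82 members. The numbers are given in the titles and in the names of the deposited counts, with no statement of shared culture. They do not show that libraries were paired.

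Single genes changed sign as follows. The length correction gave -0.0111 for Rpl26, -0.0057 for Rps10 and -0.0407 for Rps27a, and total counts gave -0.0022 for Rps27a. Leaving out 1 library at a time gave -0.06 to 1.04 for Rps4x, -1.99 to 0.10 for Rpl37, -0.0427 to 0.34 for Rps18, -0.30 to 0.0297 for Rpl17, -0.0341 to 0.32 for Rps6, -0.17 to 0.29 for Rps27a, -0.0672 to 0.37 for Rps19, -1.09 to 1.81 for Rpl23a, -0.69 to 1.18 for Rpl34, -0.88 to 0.19 for Rpl37a, -0.74 to 0.22 for Rpl7a and -0.31 to 0.13 for Rpl38. On simulated counts edgeR without the block recovered 0 of 200 changes of 0.5 on the log2 scale.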
